A study of Mus musculus with 5 samples.

Results

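The heat shock and DnaJ chaperone genes of mouse retina were examined in a small study of early diabetes. Members were chosen by name: genes called Hspa, Hspb, Dnaja, Dnajb or Dnajc with a number, and Hsp90aa1, Hspd1, Hspe1, Hsph1 and Bag3, without the endoplasmic reticulum chaperones Hspa5 and Dnajb9. There were 68 such genes, read by 164 probe sets, out of 18193 genes on 34945 probe sets that carry a single gene symbol. Hsp90ab1 was not analysed here, and Dnajc19 was left out because its probe sets carry several symbols.

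Total RNA of pooled retinas was measured on 5 Affymetrix arrays, 1 array for each pool. Diabetic replicates 1 and 2 were each made from 4 retinas of 2 mice that had received streptozotocin, which destroys the beta cells of the pancreas, and had been diabetic for 5 weeks. Diabetic replicate 3 held 6 retinas of 3 mice with experimental diabetes of 3 to 4 weeks, and its labels name no agent. Control replicates 1 and 2 each held 4 retinas of 2 untreated mice of matched age and normal glucose. The sources used here do not give strain, sex or age. With pools as replicates, p-values measure the spread between pools and not between mice.

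Chaperones keep other proteins folded. Hsp70 proteins bind and release unfolded stretches in a cycle driven by ATP, DnaJ proteins hand them clients and start ATP hydrolysis through a shared J domain, and Hsp110 proteins exchange the nucleotide. Hsp90 completes the folding of kinases and hormone receptors, small heat shock proteins hold unfolded proteins until Hsp70 takes them up, and Hspd1 with Hspe1 forms the folding chamber of mitochondria. Heat shock factors switch on the inducible members by binding repeated GAA and TTC units in their promoters. In photoreceptors, the J protein Dnajc5 is known to protect the synapse.

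The promoters of several members hold the letters through which heat shock factors act. RefSeq promoter windows of assembly GRCm38.p6, 250 bases before to 50 bases after the start, were matched for 55 of the 68 genes. The letters GAANNTTC or TTCNNGAA, each its own reverse complement, stood in the windows of 17 of these genes (30.9%), against 17.0% of the 27025 genes in the table. The longer GAANNTTCNNGAA, or TTCNNGAANNTTC on the other strand, contains both and stood in 4 genes (7.27%), against 0.662% of all genes. These 4 were Hspd1, Hspe1, Hsph1 and Dnajb6, of which Hspd1 and Hspe1 hold the same stretch of DNA read from opposite strands. A match is a run of letters, not a measured binding site.

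Stretches of 5 promoters are shown 5′ to 3′ with the matched letters in capitals. Hspa1a and Hspa1b are shown because they are near-identical copies, Hspb1 because it is the inducible small heat shock gene, and Hspe1 and Dnajb6 because they hold the longer match.
Hspa1a, chr17:34972157-34972306, minus strand: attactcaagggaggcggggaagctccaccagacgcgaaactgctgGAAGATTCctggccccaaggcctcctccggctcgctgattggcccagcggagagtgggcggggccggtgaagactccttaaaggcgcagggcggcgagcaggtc
Hspa1b, chr17:34959239-34959388, minus strand: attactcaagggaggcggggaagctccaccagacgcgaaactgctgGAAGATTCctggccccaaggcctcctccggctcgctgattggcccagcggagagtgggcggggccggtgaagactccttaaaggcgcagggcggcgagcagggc
Hspb1, chr5:135887769-135887918, plus strand: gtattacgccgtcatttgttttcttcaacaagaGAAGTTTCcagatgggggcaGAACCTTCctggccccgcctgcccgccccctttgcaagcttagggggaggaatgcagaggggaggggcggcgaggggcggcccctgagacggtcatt
Hspe1, chr1:55088053-55088082, plus strand: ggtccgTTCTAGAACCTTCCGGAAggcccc
Dnajb6, chr5:29735798-29735897, plus strand: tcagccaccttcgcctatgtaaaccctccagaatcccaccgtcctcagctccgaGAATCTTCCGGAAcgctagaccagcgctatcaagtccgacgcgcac

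Hspa1a and Hspa1b differed at 3 of the 250 bases before their starts (98.8% identity) and at 1 base of the stretches shown. Hspd1 and Hspe1 lie head to head, and 285 of the 300 bases of each window are shared, so the stretch shown for Hspe1 also lies in the window of Hspd1.

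The label of the tissue was checked against markers. All 7 measured rod genes lay between 14.25 and 17.10 on the log2 scale used throughout, log2 of the signal plus 120.6, and the 6 lens genes lay between 7.07 and 9.27. Markers of other tissue differed between pools. All 13 skeletal muscle markers were higher in diabetic replicate 3 and control replicate 2 than in the other 3 pools, and their summed signals were 99315 and 59076 in those pools against 2595 to 3227. Of 6 pigment epithelium markers, 5 lay below both controls in all diabetic pools, with sums of 83125 to 119088 in diabetic and 136288 and 178504 in control pools. The 5 melanocyte markers summed to 2672 in diabetic replicate 2 and 4684 in control replicate 1, against 13660 to 22144 in the other 3 pools. The 3′ to 5′ signal ratio of beta-actin, a measure of RNA integrity, was 4.32 in diabetic replicate 2 and 2.01 to 2.71 in the other pools. The 18S ribosomal RNA signal was 7087 in diabetic replicate 2 and 1299 to 2176 in the others.

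Diabetic pools were compared with control pools to ask which retinal genes differ early in diabetes. No chaperone gene passed the test. Of the 68 genes, 55 were bright enough to be tested, and 0 of these 55 reached a Benjamini-Hochberg adjusted p of 0.05 in limma, as did 0% of all 10916 tested genes. The smallest adjusted p of a chaperone gene was 0.999. The largest difference, diabetic minus control, was -0.40, in Dnajc17. The median difference was -0.015 over the 55 genes and 0.00602 over all tested genes, and the median size of a difference was 0.0843 against 0.0814. In 31 of the 55 the rounded difference was under 0.1 in size, and in 6 the unrounded difference was 0.3 or more.

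Differences were negative in 32 and positive in 23 of the 55 genes. This split depended on the scaling, since centring each array on its median gave 21 negative and 34 positive. That centring moved the median of all tested genes as well, from 0.01 to 0.05. At an unadjusted p of 0.05 there were 4 genes with lower values in diabetic pools (7.27%, against 1.59% of all tested genes) and 1 with higher values (1.82%, against 1.80%). These 5 were Dnajc11, Dnajc14, Dnajc17 and Hspa12a on the lower side and Hspa13 on the higher. Other genes reached this p with single pools left out. With diabetic replicate 1 left out there were 3 genes (5.45%, against 3.55% of all tested genes), Dnajc14, Hspa1a and Hspa4. With diabetic replicate 2 left out there were 6 (10.9%, against 5.55%), Dnajc14, Dnajc17, Hspa12a, Hspa13, Hspa9 and Hspb11. With diabetic replicate 3 left out there were 2 (3.64%, against 3.42%), Hspa13 and Hspb1. Leaving out a control leaves an arm of 1 pool, which is assumed to vary like the diabetic pools. There were then 3 genes without control replicate 1 (5.45%, against 2.64%), Dnajb1, Hspa13 and Hspa1b, and 2 without control replicate 2 (3.64%, against 2.12%), Bag3 and Hspa8. With the probe sets of each gene averaged the number was 0, against 3.66% of all tested genes. These averages include dim probe sets, with means below 9.7, the lowest mean level of a tested gene. Groups did not overlap for 7 genes on the lower side (12.7%, against 8.15%) and 6 on the higher side (10.9%, against 9.99%).

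**Figure D1:**
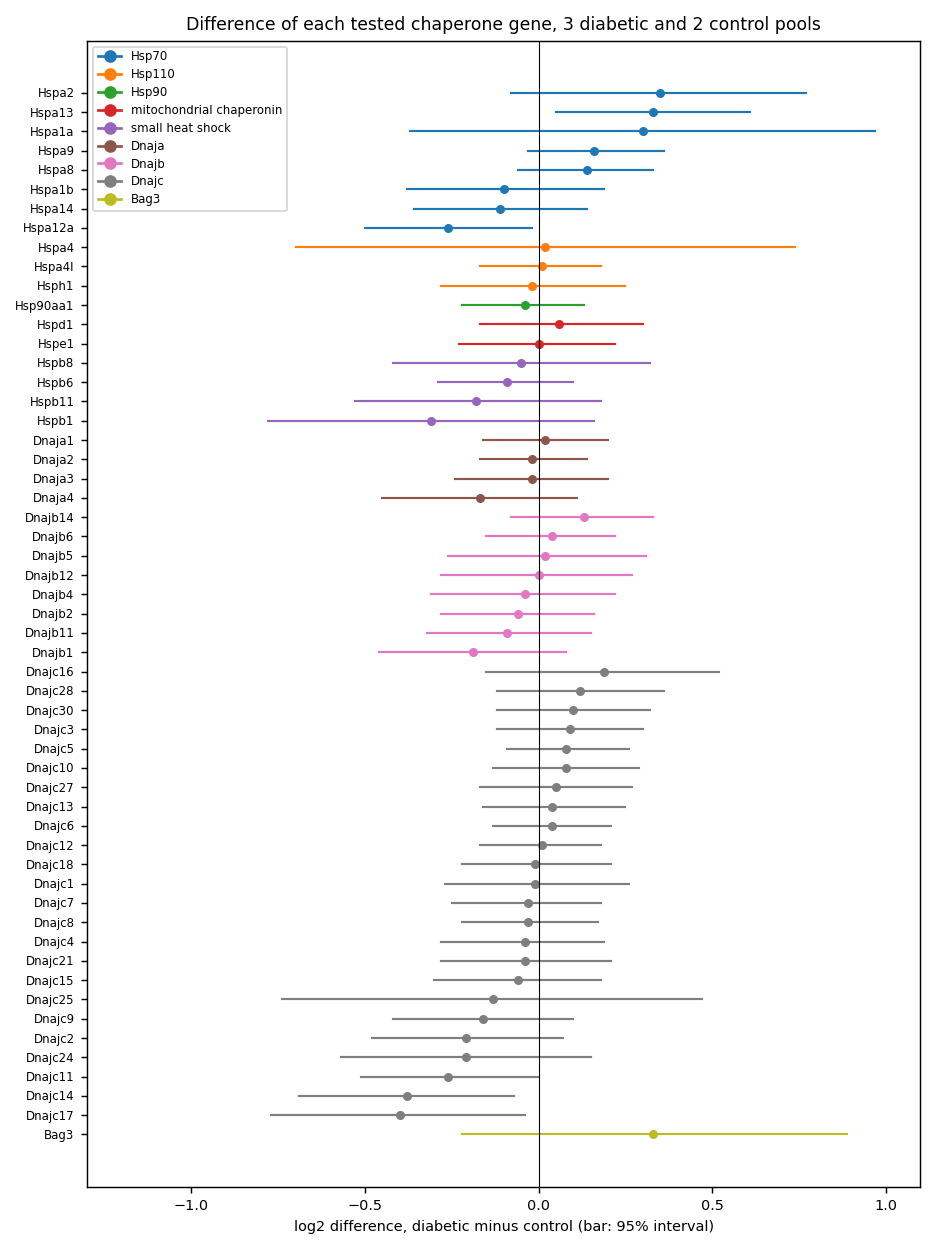
Log2 difference, diabetic minus control, of each of the 55 tested chaperone genes (points, coloured by family), with 95% intervals (bars) from 3 diabetic and 2 control pools. Nearly all intervals include 0, and the differences run from -0.40 in Dnajc17 to 0.35 in Hspa2.

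In bulk RNA, fewer cells of a type and less RNA per cell cannot be told apart, which holds for every difference given here. The Hsp70 family had 8 tested genes, with 5 positive and 3 negative differences and a median of 0.15, which was 0.19 with centred arrays. Hspa13, an Hsp70-like ATPase of microsomes, was at 12.78, 12.49 and 12.50 in the diabetic pools, replicates 1 to 3 in that order, and at 12.36 and 12.17 in the controls, replicates 1 and 2. Every diabetic pool lay above both controls, with the highest value in diabetic replicate 1. The difference was 0.33 (SE 0.12, 95% interval 0.05 to 0.61, limma unadjusted p = 0.0268), and it lay between 0.23 and 0.42 with single pools left out. The other 3 probe sets of Hspa13 differed by -0.04, 0.59 and 0.08, the last of them dim, with a mean of 9.14.

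Hspa12a, a distant relative of the Hsp70 proteins, was at 13.19, 13.33 and 13.03 in diabetic and at 13.42 and 13.47 in control pools. All diabetic pools lay below both controls. The difference was -0.26 (SE 0.10, 95% interval -0.50 to -0.02, limma unadjusted p = 0.0355). All 4 probe sets had negative differences, including a dim one with a mean of 8.12.

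Hspa9, the mitochondrial Hsp70 that pulls proteins through the inner membrane, was at 13.59, 13.54 and 13.71 in diabetic and at 13.44 and 13.46 in control pools. Its groups did not overlap, and the difference was 0.16 (SE 0.09, 95% interval -0.03 to 0.36). Further probe sets of Hspa9 differed by 0.21 and 0.1 with overlapping groups, and dim ones by 0.23 and -0.14. Hspa2, known from germ cells, was at 10.22, 10.22 and 10.51 in diabetic and at 10.11 and 9.84 in control pools. Its difference of 0.35 (SE 0.19, 95% interval -0.08 to 0.77) was the largest positive one, with every diabetic pool above both controls and the 2 controls 0.27 apart. It became 0.21 with control replicate 2 left out, 0.11 with diabetic replicate 3 left out as well, and 0.23 with the pseudocount at the median of all values.

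Hspa1a and Hspa1b encode the classical stress-inducible Hsp70. Probes for near-identical copies can bind either transcript, so the split between them is uncertain. Hspa1a was at 12.64, 13.53 and 13.86 in diabetic and at 13.14 and 12.95 in control pools. Diabetic replicates 2 and 3 lay above both controls and diabetic replicate 1 lay below them. The difference was 0.30 (SE 0.29, 95% interval -0.37 to 0.97), or 0.65 with diabetic replicate 1 left out and 0.04 with diabetic replicate 3 left out.

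Hspa1b was at 15.02, 15.18 and 14.96 in diabetic and at 14.94 and 15.36 in control pools. All diabetic values lay between those of the controls, and the difference was -0.10 (SE 0.12, 95% interval -0.38 to 0.19). It became -0.31 with control replicate 1 left out and turned to 0.11 with control replicate 2 left out. All 3 probe sets of Hspa1b were highest in control replicate 2, the other two at 14.37 and 13.95 there. Hspa8, the mainly constitutive Hsp70 that also strips clathrin from vesicles, was at 16.51, 16.55 and 16.62 in diabetic and at 16.29 and 16.56 in control pools. Its difference of 0.14 (SE 0.09, 95% interval -0.06 to 0.33) became 0.27 with control replicate 2 left out and 0.00 with control replicate 1 left out. The other probe sets of Hspa8 went the other way, with differences of -0.04, -0.26 and -0.04. The remaining tested Hsp70 gene, Hspa14, which works at the ribosome, differed by -0.11.

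The nucleotide exchange factors of the Hsp110 family had differences of 0.02 for Hspa4, 0.01 for Hspa4l and -0.02 for Hsph1. The median of 0.01 was 0.05 with centred arrays and -0.01 after quantile normalization. Hspa4 was at 12.61, 13.96 and 13.47 in diabetic and at 13.22 and 13.43 in control pools. Diabetic replicates 1 and 2 held its lowest and highest values, 1.35 log2 units apart, with both controls between them. Its difference turned from 0.39 with diabetic replicate 1 left out to -0.28 with diabetic replicate 2 left out. Hsph1, which is heat inducible, was at 13.20, 12.99 and 13.24 in diabetic and at 13.04 and 13.29 in control pools, and these groups overlapped.

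Hsp90aa1, the inducible cytosolic Hsp90, was at 16.52, 16.44 and 16.65 in diabetic and at 16.63 and 16.53 in control pools. The groups overlapped, and the difference was -0.04 (SE 0.08, 95% interval -0.22 to 0.13), or 0.00 with centred arrays and 0.07 with probe sets averaged. That average includes dim probe sets, with means of 8.54 and 8.15. Hspd1, the barrel of the mitochondrial chaperonin, was at 14.38, 14.05 and 14.24 in diabetic and at 14.18 and 14.14 in control pools. Its diabetic pools spanned both controls, and the difference was 0.06 (SE 0.10, 95% interval -0.17 to 0.30). Hspe1, the lid of the same chamber, was at 13.68, 13.82 and 13.72 in diabetic and at 13.62 and 13.87 in control pools. All its diabetic values lay between the controls, with a difference of 0.00 (SE 0.10, 95% interval -0.23 to 0.22). Hspd1 was highest in diabetic replicate 1 and Hspe1 in control replicate 2, although their promoter windows share most of their DNA.

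Among small heat shock genes, the 4 tested members all had negative differences, with centred arrays too, and none passed the test. With averaged probe sets Hspb11 turned to 0.11 and Hspb8 was at 0.00. These averages include a dim probe set of each gene, with means of 8.31 for Hspb11 and 9.68 for Hspb8. The median was -0.13, or -0.09 with centred arrays and -0.05 with averaged probe sets. Hspb1, an inducible holder of unfolded proteins and of actin filaments, was at 10.87, 10.99 and 11.51 in diabetic and at 11.27 and 11.59 in control pools. Diabetic replicate 3 lay between the controls and the other diabetic pools lay below them. The difference was -0.31 (SE 0.20, 95% interval -0.78 to 0.16), or -0.51 and -0.18 with diabetic replicates 3 and 1 left out in turn, and -0.47 and -0.15 with control replicates 1 and 2 left out in turn.

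Hspb11, better known as a part of the intraflagellar transport machinery of cilia, was at 12.46, 12.81 and 12.36 in diabetic and at 12.89 and 12.56 in control pools. Its groups overlapped, and the difference of -0.18 (SE 0.16) was -0.01 without control replicate 1. Hspb6, a small heat shock protein of muscle and other tissues, was at 14.20, 14.33 and 14.12 in diabetic and at 14.34 and 14.28 in control pools, a difference of -0.09 (SE 0.09). Hspb8, the partner of Bag3 in clearing misfolded proteins, was at 10.15, 10.15 and 10.16 in diabetic and at 10.19 and 10.21 in control pools. Its groups did not overlap, but the difference was -0.05. Hspb7, a small heat shock gene of heart and muscle, was too dim to be tested, at 8.83, 8.37 and 8.12 in diabetic and at 8.48 and 8.60 in control pools.

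Bag3, which links Hsp70 to Hspb8 and to autophagy, was at 10.29, 10.29 and 10.73 in diabetic and at 9.77 and 10.44 in control pools. Control replicate 1 was low, and control replicate 2 lay among the diabetic pools. The difference was 0.33 (SE 0.24, 95% interval -0.22 to 0.89). It became 0.67 with control replicate 2 left out, 0.00 with control replicate 1 left out and 0.19 with diabetic replicate 3 left out.

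**Figure D2:**
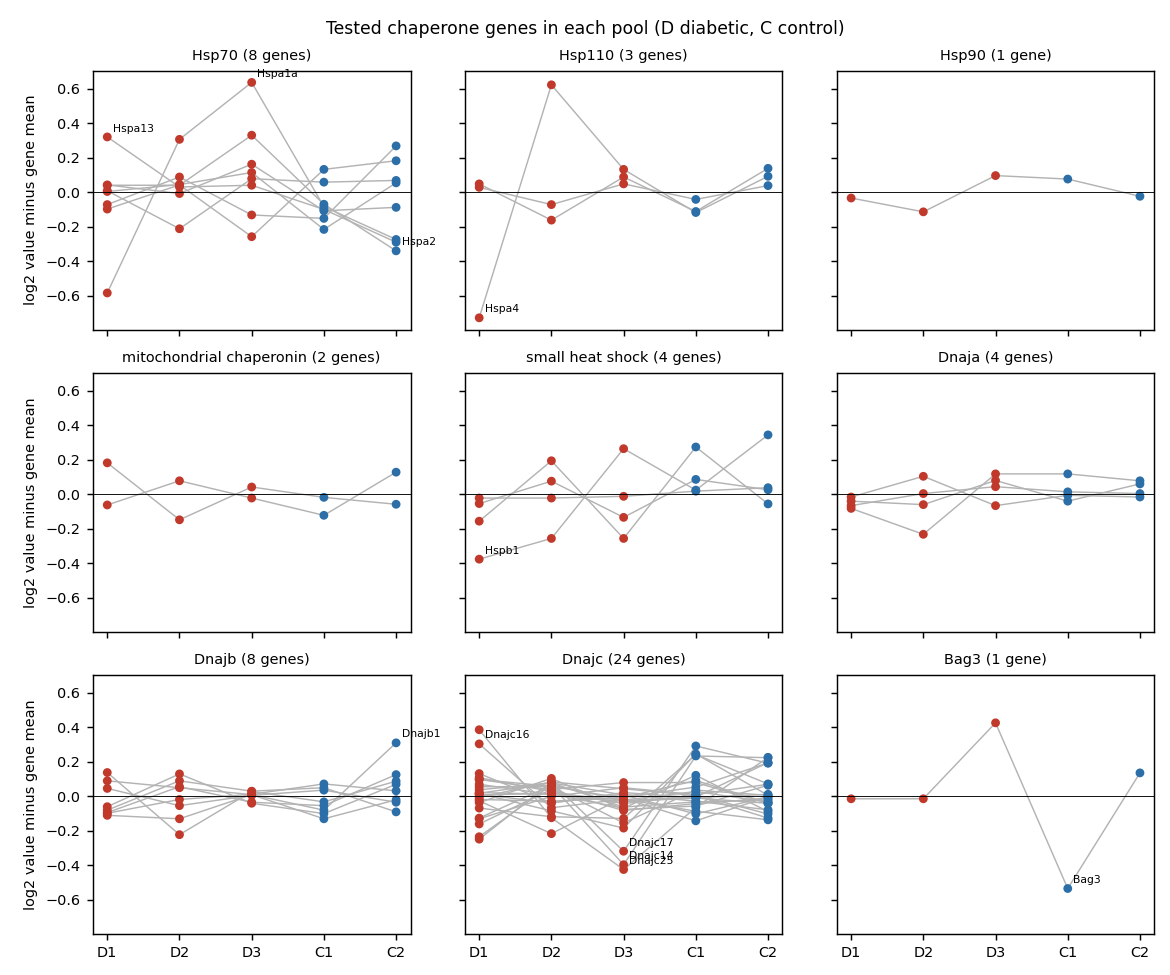
Each tested chaperone gene in each pool (D1 to D3 diabetic in red, C1 and C2 control in blue), as its log2 value minus the mean of its 5 values, with 1 panel per family and lines joining the values of a gene. Hspa4 and Hspa1a are lowest in D1, Bag3 is lowest in C1, and most Dnaja, Dnajb and Dnajc genes stay close to 0.

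The J proteins made up 36 of the 55 tested genes. Their medians were -0.02 in each of the Dnaja, Dnajb and Dnajc families, and these signs turned with centred arrays, to 0.03, 0.02 and 0.03. The median of all tested genes moved too, from 0.01 to 0.05, so the J proteins stayed below it in both settings. In the Dnaja family, of 4 tested genes, Dnaja4 differed by -0.17 (SE 0.12) and the other 3 by 0.02 or less in size. Dnaja4, a cytosolic J protein, was at 12.07, 11.92 and 12.27 in diabetic and at 12.27 and 12.23 in control pools, which overlapped. Another probe set of Dnaja4 at the same mean level, 12.15, differed by 0.12, and the remaining one by 0.18. Dnaja1, the main cytosolic J protein of its class, was at 14.27, 14.39 and 14.22 in diabetic and at 14.28 and 14.27 in control pools. Its difference was 0.02 (SE 0.08, 95% interval -0.16 to 0.20).

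In the Dnajb family 3 of 8 tested genes had positive and 5 negative differences, from -0.19 to 0.13. Dnajb1, the inducible partner of Hspa1a and Hspa1b, was at 13.58, 13.56 and 13.70 in diabetic and at 13.61 and 14.00 in control pools. Control replicate 2 stood above the other 4 pools. The difference was -0.19 (SE 0.12, 95% interval -0.46 to 0.08), or 0.01 with control replicate 2 left out and -0.38 with control replicate 1 left out. Dnajb14, a J protein of the endoplasmic reticulum membrane, was at 13.06, 13.02 and 12.98 in diabetic and at 12.84 and 12.95 in control pools, which did not overlap. Its difference was 0.13 (SE 0.09), while its other probe set differed by -0.11. Dnajb6, which keeps aggregation-prone proteins soluble, was at 14.71, 14.88 and 14.82 in diabetic and at 14.84 and 14.70 in control pools, with overlapping groups and a difference of 0.04 (SE 0.08).

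The Dnajc family, whose members share only the J domain, had 24 tested genes, 10 with positive and 14 with negative differences. Dnajc14, a J protein of the endoplasmic reticulum membrane that helps receptors reach the cell surface, was at 12.38, 12.57 and 12.11 in diabetic and at 12.74 and 12.73 in control pools. All diabetic pools lay below both controls, which were close together. The difference was -0.38 (SE 0.14, 95% interval -0.69 to -0.07, limma unadjusted p = 0.0212), and it ran from -0.49 to -0.26 with single pools left out. Its other probe sets differed by -0.16 and -0.11.

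Dnajc17, a nuclear J protein with an RNA recognition motif, was at 10.66, 10.99 and 10.59 in diabetic and at 11.20 and 11.10 in control pools. Its groups did not overlap. The difference was -0.40 (SE 0.16, 95% interval -0.77 to -0.04, limma unadjusted p = 0.0353), and its other probe sets differed by -0.05 and -0.15. The last of these was dim, with a mean of 7.1. Dnajc11, a mitochondrial protein tied to the organisation of cristae, was at 11.65, 11.60 and 11.59 in diabetic and at 11.96 and 11.79 in control pools, a difference of -0.26 (SE 0.11, limma unadjusted p = 0.0492). The other 3 probe sets of Dnajc11 went the other way, with differences of 0.30, 0.34 and 0.50. Those of 0.34 and 0.50 were dim, with means of 8.22 and 7.5. The mean over its probe sets, dim ones included, differed by 0.22.

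Dnajc5, the cysteine string protein of synaptic vesicles, was at 14.87, 14.70 and 14.75 in diabetic and at 14.71 and 14.66 in control pools. Diabetic replicate 2 lay between the controls, and the difference was 0.08 (SE 0.08, 95% interval -0.09 to 0.26). The other probe sets of Dnajc5 differed by -0.02, -0.01, -0.09 and -0.11. Dnajc6, the auxilin that brings Hsp70 to clathrin coats, was at 14.44, 14.38 and 14.34 in diabetic and at 14.36 and 14.33 in control pools, with overlapping groups and a difference of 0.04 (SE 0.07, 95% interval -0.13 to 0.21).

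The spread between pools of a group was described over the 55 genes. The median within-group SD was 0.0951, against 0.129 for all tested genes, and 37 of 55 (67.3%) lay below the latter. The median level was 12.91 in the chaperone genes and 12.08 in all tested genes, and the part of the level in the SD was not tested. The 5 genes of largest SD were Hspa4 at 0.563, Hspa1a at 0.519, Dnajc25 at 0.356, Bag3 at 0.346 and Hspb1 at 0.309. Hspa4 and Hspa1a stood at the percentiles 99.1 and 98.9 of all tested genes. Dnajc25, a membrane J protein, was at 10.23, 9.72 and 9.42 in diabetic and at 9.78 and 10.07 in control pools, so that its diabetic pools spanned both controls.

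**Figure D3:**
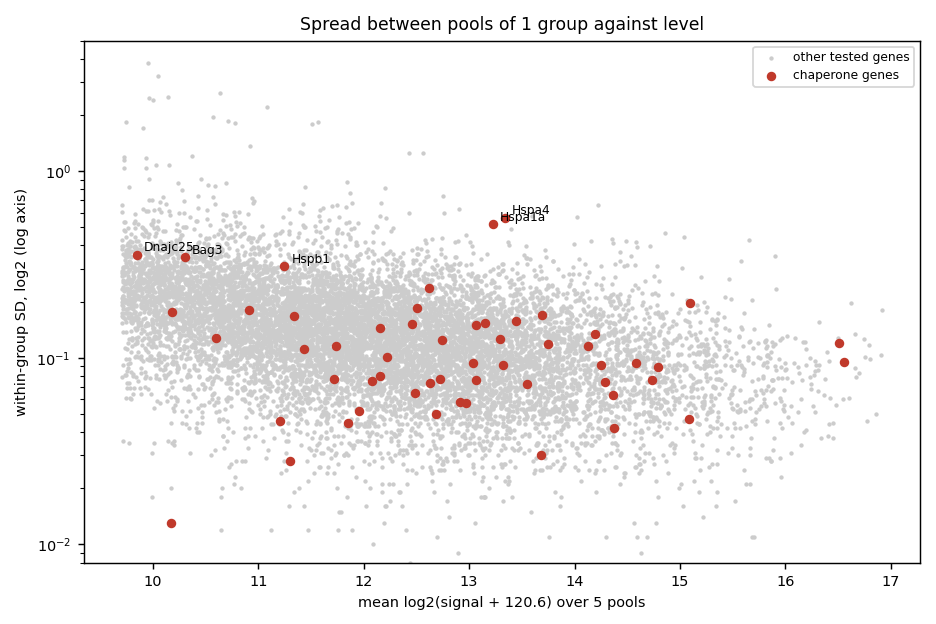
Within-group SD over the 5 pools (log axis) against the mean log2 level of each tested gene, with the 55 chaperone genes in red and the other tested genes in grey. Hspa4 and Hspa1a have the largest SDs of the chaperone genes, and 37 of the 55 lie below the median SD of all tested genes, 0.129.

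Probe sets of a gene did not always run together. There were 39 genes with more than 1 probe set above the filter on dim values, and in 21 of these 39 (53.8%) the differences took opposite signs. Hspa4 was lowest in diabetic replicate 1 by its brightest probe set, while another read 12.82, 12.82 and 12.42 in diabetic and 12.86 and 12.73 in control pools. A further probe set of Hspa4 read 11.44, 10.22 and 11.17 in diabetic and 11.02 and 11.02 in control pools, with the low value in diabetic replicate 2. The order of the pools was therefore not shared by the probe sets of Hspa4.

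Of Hspa14, the brightest probe set read 12.75, 12.53 and 12.82 in diabetic and 12.80 and 12.81 in control pools, and another read 10.91, 12.66 and 11.48 in diabetic and 11.65 and 12.01 in control pools. The 5 values of the latter stood in the same order as the beta-actin ratios, lowest in diabetic replicate 1 and highest in diabetic replicate 2. A probe set of Dnaja4 stood in the reverse order, at 11.25, 9.50 and 10.46 in diabetic and 10.37 and 10.07 in control pools. One of Hspa8 read 14.50, 15.65 and 15.24 in diabetic and 15.12 and 15.66 in control pools, again lowest in diabetic replicate 1. These probe sets were picked after their values were seen, and full matches of order were not counted over all probe sets.

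Over the 66 further probe sets above the filter, diabetic replicate 2 was the lowest pool in 32 (48.5%), against 37.6% over the further probe sets of all genes. Over the probe sets that represent the 55 genes it was lowest in 13 (23.6%), against 19.5%. Diabetic replicate 1 was highest and diabetic replicate 2 lowest in 15 of 121 probe sets (12.4%, against 10.5%), and the reverse held in 5 of 121 (4.13%, against 9.64%). The part of RNA integrity, and of the high 18S signal of diabetic replicate 2, in these values was not tested.

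**Figure D4:**
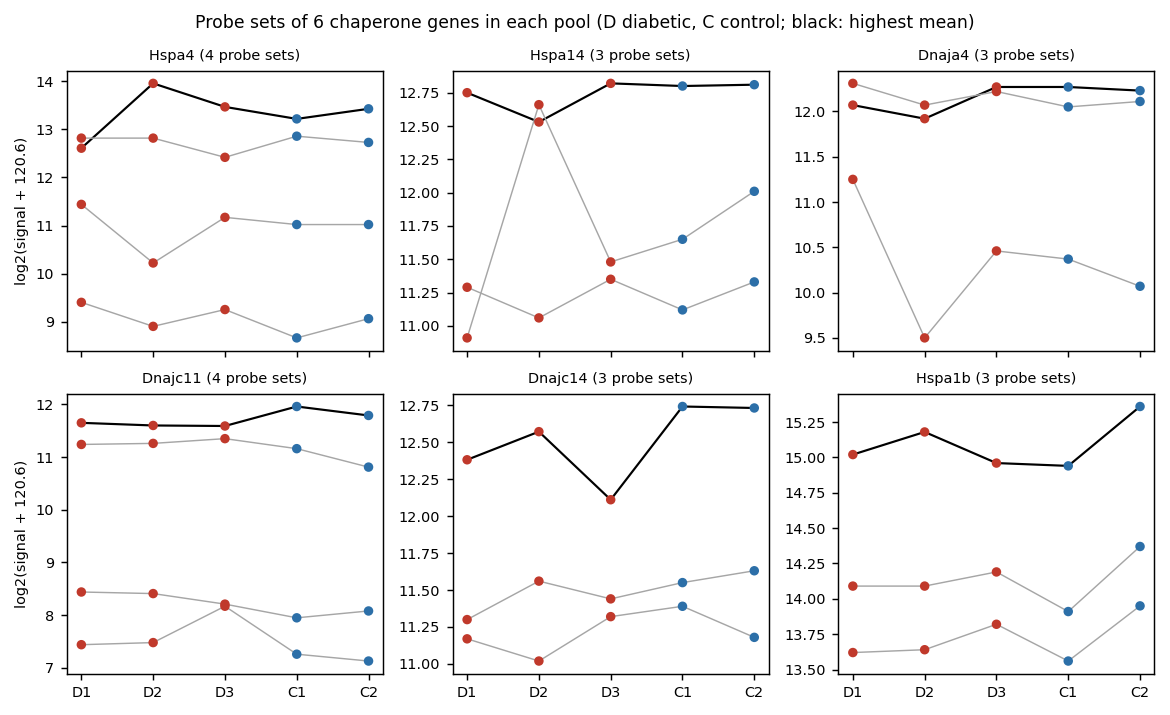
Log2(signal + 120.6) of every probe set of 6 chaperone genes in each pool (D1 to D3 diabetic in red, C1 and C2 control in blue), with the probe set of highest mean joined by a black line. The 3 probe sets of Hspa1b are all lowest in C1 and highest in C2, but D3 ranks differently between them. Those of Hspa4, Hspa14 and Dnajc11 do not all run together.

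Some members were high in the pools of high muscle signal. Diabetic replicate 3 and control replicate 2 both lay above the other 3 pools in 9 of the 55 genes (16.4%, against 8.12% of all tested genes). These were Bag3, Dnaja3, Dnajb1, Dnajc15, Hspa14, Hspa4l, Hspa8, Hspb1 and Hsph1. In some the margin was small. Hspa14 was at 12.82 and 12.81 in those pools against 12.80 in control replicate 1. Hspa4l was at 14.41 and 14.40 against 14.39 in diabetic replicate 1. The second probe set of Hspb1 showed the same pattern, at 10.00, 9.98 and 10.51 in diabetic and 9.96 and 10.69 in control pools. So did some further probe sets of Hspa8 and Hspa14, while others of these genes did not. Further probe sets of Dnaja3, Dnajb1, Hsph1 and Hspa4l did not show the pattern. The dimmer probe sets of Hspa1b showed it, though its brightest did not. Hspb6 and Hspb8, which muscle also expresses, did not show it. Without both of these pools the difference was -0.35 for Hspb1, 0.52 for Bag3 and -0.04 for Dnajb1, and 0 of the 55 genes reached an unadjusted p of 0.05, against 1.91% of all tested genes. That comparison sets 2 diabetic pools against 1 control pool, which is assumed to vary like the diabetic ones. Diabetic replicate 3 differed from the other diabetic pools in duration as well, and in that pool the muscle signal and the duration cannot be told apart. The part of muscle RNA in these values was not tested.

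**Figure D5:**
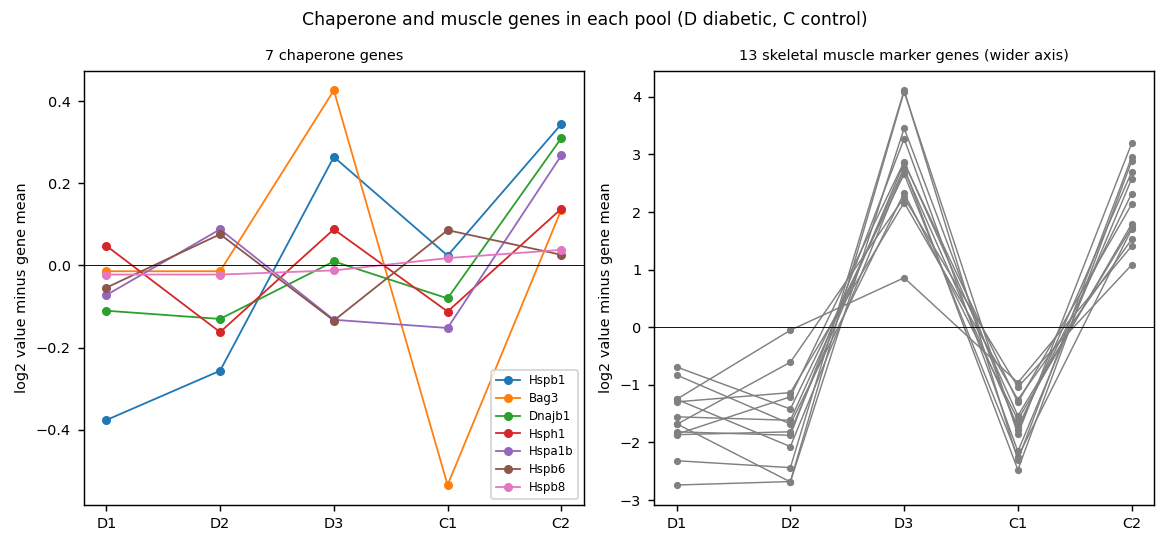
Values of 7 chaperone genes (left) and 13 skeletal muscle marker genes (right, wider axis) in each pool (D diabetic, C control), as the log2 value minus the mean of the 5 values of the gene. All muscle markers are high in D3 and C2, as are Hspb1 and Bag3 by a smaller amount, while Hspb6 and Hspb8 are not.

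The 2 control pools were also set beside each other. Control replicate 2 was higher than control replicate 1 in 28 of the 55 members (50.9%), against 50.1% of all tested genes. Among 12 core members, most of them inducible and all chosen with these values known, it was higher in 8 (66.7%), which is a description of this pair of pools. Control replicate 2 exceeded control replicate 1 by 0.68 for Bag3, 0.42 for Hspa1b, 0.39 for Dnajb1, 0.32 for Hspb1, 0.27 for Hspa8, 0.26 for Hsph1, 0.25 for Hspe1 and 0.03 for Hspb8. The values went the other way for Hspa1a, at -0.19, Hsp90aa1, at -0.10, Hspd1, at -0.04, and Dnaja1, at -0.02. In 31 of the 55 genes (56.4%) the controls differed by more than the groups did, as in 60.4% of all tested genes.

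The promoter match was set beside these values. Of tested genes with a promoter window, the 15 with the shorter match had a median difference of 0.00 and a median range over the 5 pools of 0.30. The 30 without it had a median difference of -0.03 and a median range of 0.22. These are descriptions, since the genes differ in level and number of probe sets.

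The cofactors that work with these chaperones were read from a list of 48 co-chaperones and regulators, of which 43 were tested. None passed in limma after Benjamini-Hochberg adjustment, 18 differences were positive and 25 negative, and the median was -0.01, or 0.03 with centred arrays. At an unadjusted p of 0.05 there was 1 gene of the 43 with higher values, against 1.80% of all tested genes, and 0 with lower values, against 1.59%. It was Hsf4, the heat shock factor known from the lens, at 10.06, 9.76 and 10.19 in diabetic and at 9.25 and 9.34 in control pools. Its diabetic pools all lay above both controls, with a difference of 0.71 (SE 0.21, limma unadjusted p = 0.0092, adjusted p = 0.999). Hsf4 has 1 probe set, and both controls lay below 9.7, the lowest mean level of a tested gene. It passed the filter on dim values only through its diabetic pools, so this p-value is no evidence of a change. Hsf2, a second heat shock factor, differed by 0.02 (SE 0.17). Bag1, a nucleotide exchange factor of Hsp70, was at 12.99, 13.30 and 13.24 in diabetic and at 12.87 and 13.04 in control pools, a difference of 0.22 (SE 0.12). The subunits of the cytosolic chaperonin, Tcp1 and Cct2 to Cct8, differed by -0.08 to 0.06.

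The 13 genes too dim to be tested were Hspa12b, Hspa1l, Hspb2, Hspb3, Hspb7, Hspb9, Dnajb3, Dnajb7, Dnajb8, Dnajb13, Dnajc5b, Dnajc5g and Dnajc22. Their values lay between 7.00 and 10.02. Over all 68 genes, 39 differences were negative and 29 positive.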

How the data were processed

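Total RNA of 5 retina pools was measured on Affymetrix arrays, and groups were taken from the labels. The deposited values are signal intensities on a linear scale, 1 per probe set. All 5 columns have the same mean of 2500 with 2% of values trimmed at each end, and the summarization software is not given in the sources used here. Symbols were updated by Entrez ID, and control probe sets were left out. Signals were taken as log2(signal + 120.6), the pseudocount being the 20th percentile of all values, which understates fold changes of dim genes. The probe set of highest mean stood for each gene, and the upper 60% of genes by mean were tested with limma 3.58.1 (lmFit, and eBayes with a trend) in R 4.3.3, leaving 3 residual degrees of freedom, with p-values adjusted over all tested genes after Benjamini-Hochberg. SDs within groups are pooled over both groups.

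Members, lists and tests were chosen with earlier results of these data known. Genes named with values were a fixed core, the 2 of smallest p in each family, the 5 of largest SD and those past an unadjusted p of 0.05 whose groups do not overlap. Hspa14, Dnajc6, the co-chaperones given with values, the genes set beside the muscle markers and the single probe sets described were chosen after their values were seen. The steps were tested on simulated data with independent noise. The differences put in were larger than any seen in the chaperone genes, so smaller ones were not covered. Alternatives covered pseudocounts, filters, normalization, averaged probe sets, variance models, array weights, a replicate block and arrays left out. Plots were made with matplotlib 3.10.9. The number of arrays limits the precision.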

Additional observations from a re-analysis of the deposited data

How the results depend on the processing

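Among the chaperone genes tested in each of the 17 alternatives, 45 to 68 of them, 0 passed the adjusted threshold in limma. Of the 55, 15 kept the sign of their difference in all 17, and 6 in the 16 that tested them. The cause of the following shifts was not tested. The 5 genes at an unadjusted p of 0.05 were 9.09% of those tested, against 3.39% of all genes. The number was 3 after quantile normalization (all genes 3.34%), 1 with centred arrays (2.61%), 0 with averaged probe sets (3.66%), 0 without diabetic replicate 3 and control replicate 2 together (1.91%), and 2 to 6 with single pools left out (2.12% to 5.55%). The median chaperone difference of -0.015 became 0.028 with centred arrays, while the median of all tested genes moved from 0.01 to 0.05. The chaperone median ran from -0.021 to 0.012 with single pools left out. With centred arrays the medians of Dnajc genes and of co-chaperones both became 0.03. With averaged probe sets, dim ones included, the medians were 0.03 for Hsp70, 0.07 for Hsp90, -0.05 for small heat shock and -0.05 for Dnajc genes. Hsp90aa1 differed by -0.15 without both pools of high muscle signal. With single pools left out, medians ran from 0.07 to 0.19 for Hsp70, from -0.20 to -0.07 for small heat shock genes, from -0.04 to 0.02 for Dnajc genes and from -0.05 to 0.00 for co-chaperones.

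Deviations of same-numbered pools correlated at 0.13 for replicate 1 and -0.14 for replicate 2. With 2 controls, the deviations of the controls mirror each other, so these correlations cannot decide whether the numbers pair the pools. The numbers were not taken to pair them. With the replicate block, which leaves diabetic replicate 3 out of the comparison, 2 genes reached an unadjusted p of 0.05 (3.64%, against 3.54% of all genes), and medians were 0.07 for Hsp70, -0.07 for small heat shock and 0.02 for Dnajc genes. With 5 pools the median SE of a chaperone difference was 0.104, which limits what could be detected.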
